A study of Danio rerio with 12 samples.

Results

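The genes described here are the ribosomal proteins and the factors that start and extend protein synthesis on the ribosome. They were taken by name alone, as all genes whose symbol begins with the stem of a cytosolic ribosomal protein, of an initiation factor (eIF1 to eIF6) or of an elongation factor (eEF1 or eEF2). Genes of S6 kinases, the RPS19 binding protein and lysine methyltransferases were left out. This gave 164 of the 25878 gene identifiers in the table. Of these, 83 were ribosomal proteins (47 of the large and 36 of the small subunit), 66 were initiation factors and 15 were elongation factors. Classes placed by name also hold regulators. The initiation factors include 4 eIF2 kinases and 5 genes of eIF4E binding and inhibition, and the elongation factors include the kinase EEF2K.

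Trunk neural crest of zebrafish was profiled in 12 libraries of 20 sorted cells, 8 migratory libraries at 24 hours after fertilisation and 4 premigratory libraries at 16 hours. All embryos carried the sox10:H2B-Dendra2 transgene, in which the sox10 promoter drives a photoconvertible protein in the nuclei of crest cells, and the labels give "control" as the treatment of both groups. Nuclei were converted by light, beside somites 10 to 15 in the older embryos, and the converted cells were sorted. The stages differ along with migration, so the effects of age and of migration cannot be told apart, and the labels do not tell leader from follower cells among the migratory libraries.

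Ribosomal proteins and ribosomal RNA form the small subunit, which reads the message, and the large subunit, which joins the amino acids. Initiation factors bring the first transfer RNA and the capped message to the small subunit, and elongation factors then deliver transfer RNAs and move the ribosome along. Vertebrate ribosomal protein messages and several elongation factor messages begin with an oligopyrimidine tract, through which the growth kinase mTORC1 controls their translation as a class, and phosphorylation of eIF2 lowers initiation under stress.

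The deposited normalised values summed to between 17765800 and 24227300 in migratory libraries and between 10736000 and 21711400 in premigratory libraries. A value of 10 or more was reached by 9007 to 11896 genes per migratory library and 3650 to 6879 per premigratory library. The 12122 genes that reached 10 in 4 libraries or more were compared with limma on log2(value + 1), as migratory minus premigratory means (log2 difference or log2 fold change). A gene was called where its p-value, adjusted by Benjamini-Hochberg over those genes, was under 0.05. Migratory libraries were higher for 1508 genes, 12.4% of those tested, and lower for 16, or 0.132%. Over all tested genes, log2 fold changes had a median of 2.67. Crest markers were unevenly detected. SOX10, whose promoter drives the sorted label, stood at 1225 to 22646 in migratory and 3769 to 16200 in premigratory libraries, and crestin at 135 to 16239 and 5.97 to 4299. FOXD3 had 2522, 5.80, 1.99 and 2940 in premigratory libraries, where both MITF identifiers had at most 7.17. Crest markers took 0.0218% to 0.327% of a migratory library and 0.0291% to 0.150% of a premigratory library. The lowest shares were in migratory library 5 and premigratory library 1. Of 13 crest identifiers, 9 to 11 were at 10 or more per migratory library and 2 to 7 per premigratory library, and erbb3b was listed at 0 in migratory library 5 and premigratory libraries 1 to 3. Markers of other tissues reached high shares of the summed value in some libraries. Epidermis markers took 0.0022% to 3.40% of a migratory library and 0.06% to 8.65% of a premigratory library (2 to 9 and 5 to 9 of 9 at 10 or more). Muscle markers took 0.00442% to 4.20% and 0.00565% to 0.0238% (6 to 11 and 3 to 5 of 11), and blood markers 0.000107% to 8.07% and 7.18e-05% to 0.0493% (0 to 8 and 0 to 3 of 9).

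As deposited, ribosomal proteins stood at near equal values in migratory and premigratory libraries. Of 82 tested, 0 were called higher and 0 lower, and 0 had an unadjusted p under 0.05 in limma. Of all tested genes 12.4% were called higher and 0.132% lower. An unadjusted p under 0.05 was reached by 3850 of the 12122 with migratory libraries higher and by 80 with them lower. The median log2 fold change of ribosomal proteins was -0.03, with 37 above 0 and 45 below. It was -0.21 after quantile normalisation, -0.41 with libraries set to the same total, -1.18 by the median of ratios and -0.40 by the trimmed mean of M values. Fold changes of 72 of the 82 lay within 0.5 of 0 on the log2 scale. Detection was near complete, with 81 of the 83 genes at 10 or more in each of the 12 libraries, a level that 1153 of all 25878 identifiers reached. The heat map of the genes by library and the plot of fold changes by role show these values.

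**Figure D1:**
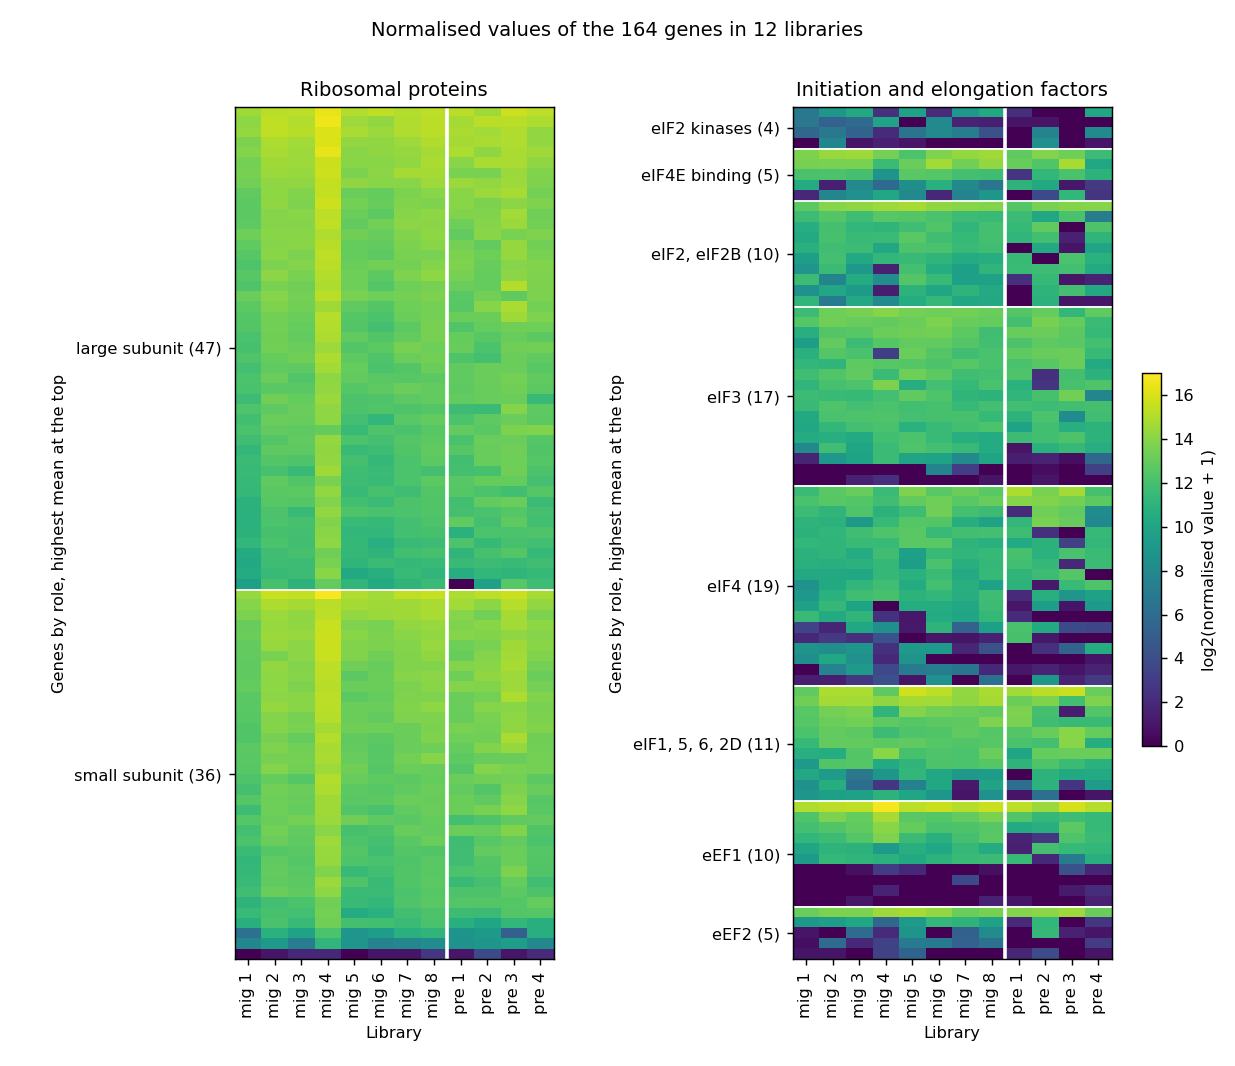
Each row is 1 of the 164 genes, grouped by role with the number of genes, and each column is 1 of 8 migratory (mig) or 4 premigratory (pre) libraries; colour is log2(normalised value + 1). The ribosomal proteins change brightness together from library to library and are brightest in migratory library 4, while dark cells of near-zero values are scattered among the factors and are more frequent in the premigratory columns.

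**Figure D2:**
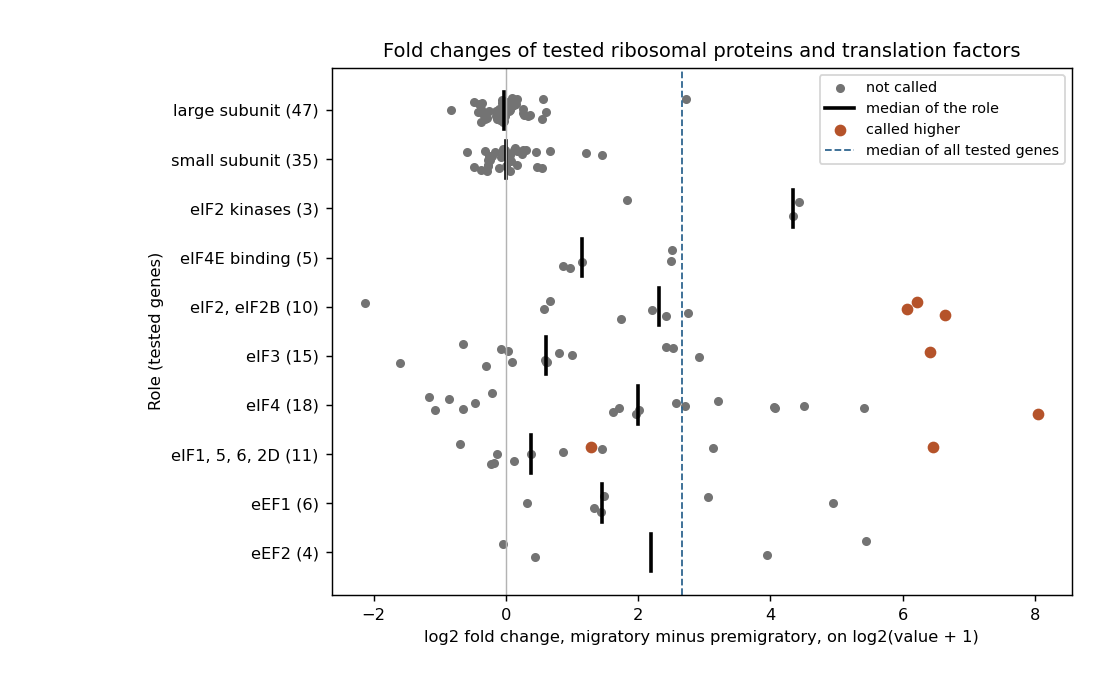
Each point is a tested gene at its log2 fold change, migratory minus premigratory, in rows by role; black bars are medians of the role and the dashed line marks the median of all tested genes, 2.67. The points of both ribosomal subunits crowd around 0, and the 7 called initiation factors lie between 1.28 and 8.05.

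Large-subunit proteins had a median log2 fold change of -0.03 over 47 genes. RPL3, which lies near the peptidyl transferase centre and had the highest mean of the role, ranged from 24219 to 89810 in migratory libraries with a median of 39396, and stood at 39333, 24792, 52953 and 39654 in premigratory libraries. The groups overlapped throughout, and the log2 difference was 0.09 (SE 0.29, adjusted p = 0.856). RPLP0, the protein that anchors the stalk where elongation factors bind, ranged from 14959 to 85029 (median 22161) in migratory libraries, against 30301, 18699, 29392 and 24759 in premigratory libraries. Its log2 difference was -0.04 (SE 0.38, adjusted p = 0.949), and migratory library 4 alone lay above all premigratory libraries. RPL4, whose extension lines the exit tunnel of the new protein, had 8913 to 38273 (median 11911) in migratory libraries, against 6311, 10913, 7379 and 12822 in premigratory libraries (log2 fold change 0.57, SE 0.42, adjusted p = 0.357). The gene rpl7a had a log2 difference of 0.54 (SE 0.38, adjusted p = 0.332).

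The lowest and the highest fold changes among large-subunit genes were those of RPL7L1 and RPL22L1. RPL7L1, in mammals a nucleolar relative of RPL7, had 2807 to 8048 (median 5654) in migratory libraries, against 7700, 6365, 13015 and 13838 in premigratory libraries. This was the lowest fold change of all ribosomal proteins, -0.83 on the log2 scale (SE 0.48, adjusted p = 0.229). It was called lower under 1 alternative, scaling by the median of ratios, with -1.99 (adjusted p = 0.0346), and the median of all ribosomal proteins then stood at -1.18. RPL22L1, in mammals a partly interchangeable paralog of the RNA-binding protein RPL22, had 765 to 7858 (median 2225) in migratory libraries. In premigratory libraries it was listed at 0, 840, 6173 and 3355. Its log2 difference of 2.72 (SE 1.75, adjusted p = 0.284), the highest of all ribosomal proteins, rested on the value of 0 in premigratory library 1, and without that library it was -0.11. RPL22 itself had a log2 difference of -0.41 (SE 0.58, adjusted p = 0.649).

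Small-subunit proteins had a median log2 fold change of -0.0044 over 35 tested genes. RPS2, which lies at the entry of the message channel and had the highest mean of the role, ranged from 21236 to 117436 (median 42613) in migratory libraries, against 31444, 40103, 51216 and 27544 in premigratory libraries. Its log2 difference was 0.17 (SE 0.35, adjusted p = 0.754). RPS6, the substrate of the S6 kinases, had 9506 to 51340 (median 17932) in migratory libraries and 15381, 14140, 18121 and 15134 in premigratory libraries, a log2 difference of 0.26 (SE 0.38, adjusted p = 0.657). Premigratory values of RPS6 spanned a narrow band inside the range of the migratory ones. RPS9 (0.67, adjusted p = 0.319) and RPS4Y2 (0.54, adjusted p = 0.262) had positive log2 fold changes that were not called.

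Members of the RPS27 family, small-subunit zinc finger proteins, had the highest small-subunit fold changes. The gene rps27l had 1636, 4412, 2769, 10186, 4147, 3657, 3114 and 4477 in migratory libraries 1 to 8, against 1713, 1039, 2469 and 1668 in premigratory libraries. All migratory values but that of library 1 lay above all premigratory values, and the log2 difference was 1.21 (SE 0.68, adjusted p = 0.219). The gene rps27.2 had a log2 difference of 1.45 (SE 1.35, adjusted p = 0.474), with 79.1 to 4718 in migratory libraries and 444, 601, 36.1 and 1598 in premigratory libraries. The gene rps27.1 was close to 0, at -0.25 (SE 0.43, adjusted p = 0.715).

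The share of ribosomal proteins differed more between libraries of 1 group than between the groups. The 83 genes took 2.58%, 6.08%, 5.08%, 13.8%, 3.12%, 2.65%, 4.66% and 4.42% of the summed value in migratory libraries 1 to 8, and 3.62%, 5.41%, 8.37% and 7.71% in premigratory libraries 1 to 4. Means were 5.29% ± 3.64 (SD, n = 8) in migratory libraries, against 6.28% ± 2.18 (SD, n = 4) in premigratory ones, a difference of -0.98 percentage points within the spread of either group. Migratory library 4 was the highest migratory library for all 82 tested ribosomal proteins, and without it the migratory mean was 4.08% ± 1.33 and the difference -2.19 points. The difference was -0.60 without migratory library 1 or 6, -1.87 without premigratory library 1, -0.29 without premigratory library 3 and -0.50 without premigratory library 4. Migratory library 1 was the lowest migratory library for 63 of them, and premigratory library 3 was the highest premigratory library for 63. Among batches that hold both groups, migratory libraries were higher for 12 of 82 ribosomal proteins in batch 1, 59 in batch 2, 14 in batch 3 and 81 in batch 4, so the direction of the class differed between batches.

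Marker levels of other cell types also differed between libraries. Muscle markers took 4.20% and epidermis markers 2.59% of migratory library 1, where the ribosomal share was lowest. Blood markers took 8.07% of migratory library 5, and muscle markers 1.37% of migratory library 6, the other migratory libraries below 4%. Migratory library 2, with the second highest migratory ribosomal share, had 1.74% muscle markers. In migratory library 4, muscle markers took 0.0091%, epidermis markers 0.0199% and blood markers 0.00127%. Neural tube markers took 0.0924% of that library, the highest of the 12 libraries, with ELAVL3 at 12599 and SOX3 at 4427, against 0.00145% to 0.0761% in the other migratory libraries and 0.000324% to 0.0634% in premigratory libraries. Migratory library 8 had 3.40% epidermis and 1.60% muscle markers, and premigratory libraries 1 and 4 had 8.65% and 2.86% epidermis markers. The part of other cell types in the share was not tested.

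**Figure D3:**
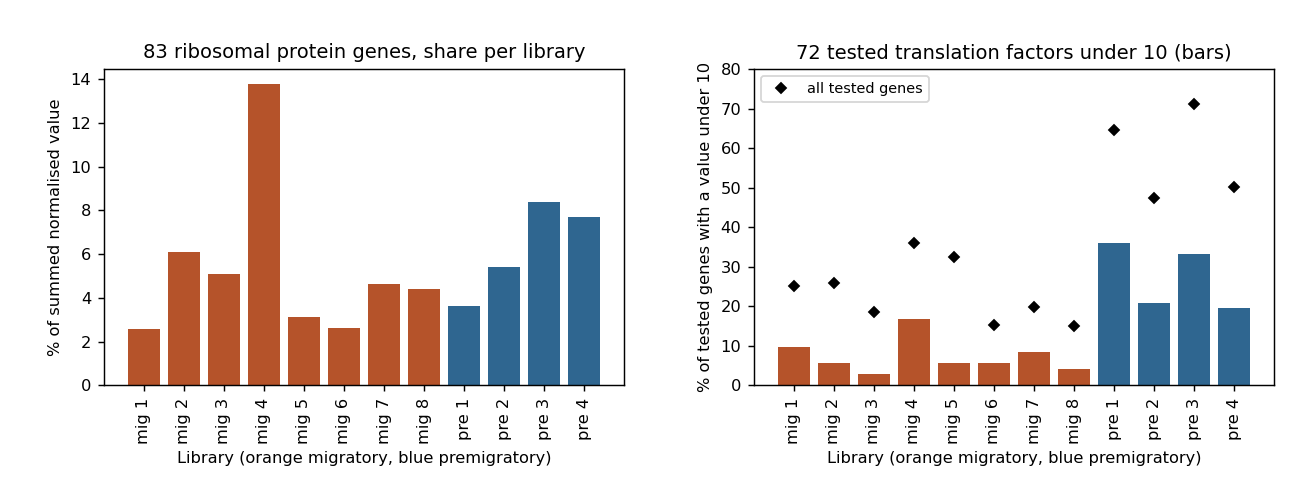
Left: share of the summed normalised value taken by the 83 ribosomal protein genes, in percent, for 8 migratory (orange) and 4 premigratory (blue) libraries; the bar of migratory library 4 reaches 13.8% and the other migratory bars lie between 2.58% and 6.08%. Right: percent of the 72 tested translation factors (bars) and of all 12122 tested genes (diamonds) with a value under 10, which is higher in all 4 premigratory libraries for both.

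Ribosomal proteins varied together across migratory libraries. Between pairs of the 81 genes present everywhere, Pearson's r of log2 values over the 8 migratory libraries had a median of 0.92, and 89.4% of 3240 pairs exceeded 0.8. The 25 initiation factors present everywhere had a median r of 0.30 with each other and 0.27 with ribosomal proteins, and the 4 elongation factors had 0.81 with ribosomal proteins. The other 1043 genes present everywhere had a median r of 0.13 with each other and 0.25 with ribosomal proteins. Of pairs with a ribosomal protein, 0.54% exceeded 0.8 for initiation factors, 52.8% for elongation factors and 8.7% for the other genes. These values describe the 8 libraries, whose scaling and cell content the genes of a library share. Migratory library 4 was the highest of them for all 82 tested ribosomal proteins, and r was not computed without it. The SD of a ribosomal protein over migratory libraries had a median of 0.81 on the log2 scale, and 0.23 once the mean of all ribosomal proteins in the same library was subtracted. Over premigratory libraries the medians were 0.49 and 0.36.

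Initiation factors had a higher median fold change than ribosomal proteins. Whether it lay below or above that of all tested genes depended on the filter and the scaling. Of 62 tested, 7 rose in migratory libraries, 11.3%, beside 12.4% of all tested genes, and 0 fell, beside 0.132%. Those 7 were EIF4E3, EIF2B1, EIF2B5, EIF3E, EIF2D, EIF2B4 and eif5a. Unadjusted limma p-values under 0.05 were reached by 12, all higher in migratory libraries. Of all 12122 tested genes, 3850 reached this with migratory libraries higher and 80 with them lower. The median log2 fold change of the class was 1.37, against 2.67 for all tested genes and -0.03 for ribosomal proteins. Without a filter on low values it was 1.07, against 0.94 for all genes. Elongation factors had 0 of 10 tested genes called by limma, 5 with an unadjusted p under 0.05, and a median of 1.46. With the batch number as a fixed block, which leaves 3 residual degrees of freedom, 0 of the 7 remained and 0 genes were called in all. The count of called initiation factors was 1 without migratory library 3, 6 or 8, 2 without migratory library 7 or premigratory library 1, and 0 without premigratory library 3. No ribosomal protein or factor had groups without overlap, 0 of 154 tested, beside 4.83% of all tested genes with all migratory libraries higher and 0.14% with all lower.

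Low values of factors were more frequent in premigratory libraries. Values under 10 made up 12.1% of initiation factor values in migratory and 29.9% in premigratory libraries, and 37.5% of elongation factor values in migratory and 53.3% in premigratory libraries. For ribosomal proteins both shares were 1.2%, and over all identifiers they were 59.2% in migratory and 78.8% in premigratory libraries. Among the 72 tested factors, 2 to 12 were under 10 per migratory library and 14 to 26 per premigratory library. There were 23 factors with 10 or more in all 8 migratory libraries and under 10 in at least 1 premigratory library, as had 2461 of the 12122 tested genes. Fewer genes were detected in premigratory libraries in general, and the part of detection in the fold changes of factors was not tested. Fewer cells that express a gene and less RNA per cell cannot be told apart in libraries of pooled cells. The filter also treats the groups unequally: a gene seen in migratory libraries alone could pass with 4 of 8, and a gene seen in premigratory libraries alone needed all 4. Genes that passed through migratory libraries alone include EIF4E3, EIF2AK3, EEF2 and the EIF4G3 identifier ending in 074331.

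**Figure D4:**
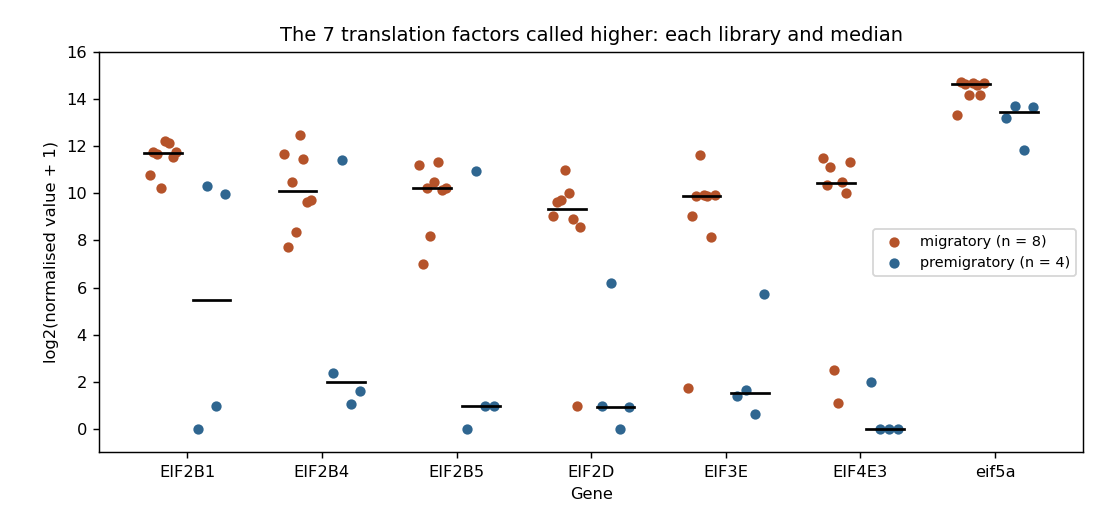
Each point is 1 library, on log2(normalised value + 1), for the 7 called factors, with migratory libraries (n = 8, orange) left of premigratory libraries (n = 4, blue); black bars are medians. In 6 genes premigratory values near 0 stand beside 1 or more high ones or low migratory ones, and in eif5a all 12 values are 3625 or more before the logarithm.

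The eIF2 complex carries the initiator transfer RNA, and eIF2B reloads it with GTP. By name, 10 tested genes were placed with eIF2 and eIF2B, among them EIF2A. Of these, 3 rose and 0 fell, all 3 of them eIF2B subunits, beside 12.4% and 0.132% of all tested genes. EIF2A, given after its values were seen, had the lowest log2 fold change of the 154 tested genes described here, -2.13, without a call. Its SD over migratory libraries was 3.31 on the log2 scale. With 1 library left out, EIF2B1 was called in 6 of 12 fits, EIF2B5 in 5 and EIF2B4 in 3. EIF2B1, the alpha subunit, had 1767, 3498, 3270, 1197, 4816, 4545, 2967 and 3484 in migratory libraries 1 to 8, against 0, 1253, 0.97 and 995 in premigratory libraries. All migratory values but that of library 4 lay above all premigratory values, and the log2 difference was 6.21 (SE 1.76, adjusted p = 0.0319). EIF2B5, the catalytic epsilon subunit, had 126 to 2597 (median 1209) in migratory libraries, against 0, 1946, 0.969 and 0.973 in premigratory libraries (6.64, SE 1.92, adjusted p = 0.0346). EIF2B4, the delta subunit, had 207 to 5627 (median 1142) in migratory libraries, against 4.17, 2727, 1.07 and 2.05 in premigratory libraries (6.07, SE 1.86, adjusted p = 0.0418).

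Premigratory library 2 held the 1 high premigratory value of both EIF2B4 and EIF2B5, and in batch 2 both were lower in the migratory library, by log2 differences of -3.71 and -3.94. In batches 1, 3 and 4 the differences of these genes were between 6.74 and 11.22. For EIF2B1 the difference was positive in all 4 batches, between 0.27 and 10.79. The other subunits, EIF2B2 (beta) and EIF2B3 (gamma), are given here to complete the complex, after their values were seen. EIF2B2 had 726 to 3894 in migratory libraries and 2782, 0, 4562 and 1826 in premigratory libraries (2.22, SE 1.74, adjusted p = 0.389). EIF2B3 had 1.42 to 2133 in migratory libraries and 0, 2115, 3969 and 1212 in premigratory libraries (0.66, SE 2.22, adjusted p = 0.86). All 5 eIF2B genes had both high values and values near 0 among the premigratory libraries.

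Genes of eIF2 itself were not called. EIF2S2, the beta subunit, had 6876 to 27877 (median 17211) in migratory libraries, against 5511, 11729, 14888 and 15734 in premigratory libraries, and was higher in the migratory library in 4 of 4 batches (0.57, SE 0.40, adjusted p = 0.329). EIF2S1, the alpha subunit that stress kinases phosphorylate, has 2 identifiers. The one ending in 005827 had 1525 to 5428 in migratory libraries and 2711, 7290, 0 and 4776 in premigratory libraries, and the one ending in 052178 had 1360 to 6513 in migratory libraries, against 2307, 3636, 1.95 and 2266 in premigratory libraries. Their log2 fold changes of 2.42 and 2.75 (adjusted p = 0.346 and 0.204) rested on premigratory library 3, and without it were -0.62 and 0.29. EIF2S3B, a gamma subunit, had a log2 difference of 1.74 (SE 0.86, adjusted p = 0.167).

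Of 3 tested kinases of eIF2, 0 were called, beside 12.4% of all tested genes higher and 0.132% lower. EIF2AK3 (PERK), the kinase of endoplasmic reticulum stress, had 106, 39.5, 61.7, 973, 0, 266, 2.25 and 1.87 in migratory libraries 1 to 8, against 0.938, 0.891, 0 and 0 in premigratory libraries. Migratory library 5 was listed at 0 and the other 7 lay above all premigratory libraries, with a log2 difference of 4.44 (SE 1.76, adjusted p = 0.0992). It was called in batches 1 to 4 alone and without migratory library 5. The gene eif2ak1 (HRI), the haem-regulated kinase, had 2.99 to 1304 (median 513) in migratory libraries, against 4, 0, 0 and 1137 in premigratory libraries (4.34, SE 2.25, adjusted p = 0.186). EIF2AK4 (GCN2), which senses uncharged transfer RNA, had 3.04 to 265 in migratory libraries, against 0, 190, 0 and 264 in premigratory libraries (1.83, SE 1.86, adjusted p = 0.517). The gene eif2ak2 (PKR), the kinase of double-stranded RNA, was under the filter, with 225 in migratory library 2, 383 in premigratory library 2 and at most 1.99 elsewhere.

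The scaffold eIF3 links the small subunit to the cap-binding factors. Of its 15 tested genes, 1 rose and 0 fell, beside 12.4% and 0.132% of all tested genes, and the median log2 fold change was 0.61. Fold changes in this role ran from -1.60 to 6.42. EIF3E had 2.37, 531, 949, 3133, 980, 934, 283 and 971 in migratory libraries 1 to 8, against 1.66, 2.17, 0.553 and 51.5 in premigratory libraries. Migratory library 1 lay among the premigratory values and the other 7 lay above them, a log2 difference of 6.42 (SE 1.86, adjusted p = 0.0345), called in 5 of 12 fits that left out 1 library. The paralog eif3ea had 706 to 7655 (median 5750) in migratory libraries, against 4841, 7054, 6323 and 3825 in premigratory libraries (-0.30, SE 0.67, adjusted p = 0.78). EIF3G, an RNA-binding subunit with the highest mean of the role, had 10023 ± 3364 (SD, n = 8) in migratory libraries, against 5865 ± 2493 (SD, n = 4) in premigratory ones (0.80, SE 0.50, adjusted p = 0.272).

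The values of 2 other eIF3 genes rested on premigratory library 2. EIF3F had 1542 to 12620 in migratory libraries and 1866, 4.76, 4254 and 5142 in premigratory libraries (2.43, adjusted p = 0.238), and without premigratory library 2 its log2 fold change was 0.12. One EIF3J identifier, ending in 053370, had 3107 to 9686 in migratory libraries, against 5064, 3.9, 3979 and 1928 in premigratory libraries (2.92, adjusted p = 0.159), and 0.56 without that library. The subunit EIF3M, singled out after its values were seen, had 3829 ± 772 (SD, n = 8) in migratory libraries, against 3678 ± 391 (SD, n = 4) in premigratory ones.

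Factors of the eIF4 group bind the cap and unwind the leader of the message. Of 18 tested, 1 rose and 0 fell, beside 12.4% and 0.132% of all tested genes, with a median log2 fold change of 1.99. EIF4E3, in mammals a cap-binding protein of the eIF4E family, had 2885, 1320, 2226, 4.72, 1.15, 1436, 1030 and 2554 in migratory libraries 1 to 8, against 3.02, 0, 0 and 0 in premigratory libraries. Migratory libraries 4 and 5 lay near the premigratory level and the other 6 lay at 1030 or more. The log2 difference was 8.05 (SE 2.12, adjusted p = 0.0227), the highest of all 154 tested genes described here. EIF4E3 passed the filter through migratory libraries alone. With premigratory values this near 0, the size of the difference depends on the pseudocount. It was called in 20 of 24 alternatives and in 11 of 12 that left out 1 library, the exception being premigratory library 3. Differences in batches 1 to 4 were 9.49, 10.37, 11.12 and 2.52.

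Other cap-binding genes were not called. EIF4E had 1155 to 3108 (median 1576) in migratory libraries, against 2248, 3236, 5925 and 0 in premigratory libraries (1.97, SE 1.76, adjusted p = 0.455), and -0.98 without premigratory library 4. Its paralog eif4eb had 0 to 3236 in migratory libraries and 1, 703, 0.988 and 565 in premigratory libraries (4.07, SE 2.30, adjusted p = 0.222). The eIF4E2-related gene eif4e2rs1 was higher in the migratory library in 4 of 4 batches, with 534 to 4182 in migratory libraries, against 3.04, 1682, 468 and 859 in premigratory libraries (3.21, SE 1.40, adjusted p = 0.126).

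The helicase eIF4A had paralogs of opposite sign. The gene eif4a1a had 3063 to 13678 (median 6434) in migratory libraries, against 31311, 12480, 25229 and 4194 in premigratory libraries. It was lower in the migratory library in 4 of 4 batches (-1.17, SE 0.58, adjusted p = 0.169). In contrast, eif4a1b had 1902 to 6339 (median 3678) in migratory libraries, against 3339, 3.79, 0 and 2630 in premigratory libraries (5.42, SE 1.82, adjusted p = 0.0583). EIF4A3, the helicase of the exon junction complex, was lower in 4 of 4 batches, with 6493 ± 2048 (SD, n = 8) in migratory libraries, against 11843 ± 3846 (SD, n = 4) in premigratory ones (-0.86, SE 0.45, adjusted p = 0.185). It was chosen after its values were seen. Scaled by the median of ratios, eif4a1a (-2.32, adjusted p = 0.0398), EIF4A3 (-2.02, adjusted p = 0.0187) and EIF6 (-1.84, adjusted p = 0.0459) were called lower, when the median of all tested genes was 1.85. One EIF4G3 identifier, ending in 074331, of a scaffold that joins cap and eIF3, had 0 to 559 in migratory libraries and 0.957 to 2.29 in premigratory libraries (4.05, SE 1.69, adjusted p = 0.114).

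Proteins that bind eIF4E and keep it from eIF4G were 0 of 5 called, beside 12.4% of all tested genes higher and 0.132% lower. The gene eif4ebp1, an mTORC1 substrate, had 12574, 21037, 23542, 11400, 4733, 13680, 20429 and 24603 in migratory libraries 1 to 8, against 7394, 14287, 9558 and 3185 in premigratory libraries. It was higher in the migratory library in 4 of 4 batches, and migratory library 5 lay below 3 premigratory ones (0.98, SE 0.50, adjusted p = 0.179). EIF4EBP2 had 3070 to 26147 in migratory libraries, against 8582, 5373, 27784 and 1173 in premigratory libraries (0.86, SE 0.70, adjusted p = 0.406). EIF4EBP3 had log2 fold changes of 2.51 and 2.50 at its 2 identifiers (adjusted p = 0.225 and 0.443).

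A further 11 tested genes were EIF2D and those named after eIF1, eIF5 or eIF6. Of these, 2 rose and 0 fell, beside 12.4% and 0.132% of all tested genes. Genes were placed by name, so eif5a was counted among the initiation factors. The gene eif5a, whose hypusinated product helps ribosomes past proline-rich stretches, had 10195, 27387, 25894, 18347, 26337, 25164, 18535 and 26615 in migratory libraries 1 to 8, against 9448, 13226, 3625 and 13147 in premigratory libraries. Migratory library 1 lay within the premigratory range and the other 7 lay above it. Means were 22309 ± 6074 (SD, n = 8) in migratory libraries, against 9861 ± 4516 (SD, n = 4) in premigratory ones, with a log2 difference of 1.28 (SE 0.40, adjusted p = 0.0437), higher in 4 of 4 batches. This call held in 4 of 12 alternatives that left out 1 library, and in 6 of all 26 alternatives. It was lost with the trimmed mean of M values, the median of ratios, the same total and quantile normalisation. Over the 26 alternatives the log2 fold change of eif5a ranged from 0.13 to 1.48. Its paralog EIF5A2 had 27425 ± 16248 (SD, n = 8) in migratory libraries, against 31090 ± 17986 (SD, n = 4) in premigratory ones, and was lower in the migratory library in 4 of 4 batches (-0.22, SE 0.56, adjusted p = 0.809). EIF2D, which can deliver transfer RNA to the small subunit independently of eIF2, had 0.936 to 2019 (median 659) in migratory libraries, against 0.931, 72, 0 and 0.914 in premigratory libraries. Migratory library 7 held the lowest value and the other 7 lay at 383 or more (6.46, SE 1.94, adjusted p = 0.0395), and the gene was called in 5 of 12 fits that left out 1 library.

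EIF5, which triggers GTP hydrolysis by eIF2, had 2187 to 14531 in migratory libraries and 12851, 4143, 1.58 and 5535 in premigratory libraries (3.14, SE 1.60, adjusted p = 0.18), and 0.30 without premigratory library 3. EIF1, which guards start codon choice, had a log2 difference of 0.86 (SE 0.51, adjusted p = 0.246). EIF6 keeps free large subunits from joining small ones. It had 3286 to 7557 (median 5668) in migratory libraries, against 5640, 8451, 16243 and 8275 in premigratory libraries, and was lower in the migratory library in 4 of 4 batches (-0.69, SE 0.47, adjusted p = 0.313).

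Elongation factors fell into genes of even level and genes with scattered low values. The gene eef1a1l1, which codes for the factor that delivers aminoacyl transfer RNA, had 32382 to 113713 (median 41172) in migratory libraries, against 41146, 21854, 60657 and 35749 in premigratory libraries (0.32, SE 0.31, adjusted p = 0.497). Its highest value was in migratory library 4, as for the ribosomal proteins. The gene eef2b, of the translocation factor, had 9066 to 28036 (median 12834) in migratory libraries, against 14992, 16642, 22988 and 8977 in premigratory libraries (-0.05, SE 0.39, adjusted p = 0.948).

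The 5 other tested eEF1 genes, most of them of the exchange complex that reloads eEF1A, were not called. Of all tested genes, 12.4% were higher and 0.132% lower. EEF1B2 had 5058, 12577, 7989, 28346, 6349, 5959, 7696 and 12317 in migratory libraries 1 to 8, against 5351, 2524, 3331 and 2654 in premigratory libraries. Migratory library 1 was below premigratory library 1 and all other migratory values lay above all premigratory ones (1.48, SE 0.53, adjusted p = 0.0745). Relative to the mean of ribosomal proteins in the same library, the log2 value of EEF1B2 was 0.05 ± 0.17 (SD, n = 8) in migratory libraries, against -1.41 ± 0.65 (SD, n = 4) in premigratory ones. Before that subtraction its SD over migratory libraries was 0.81. EEF1G had 3897 to 16383 (median 5743) in migratory libraries, against 1372, 1687, 6755 and 2627 in premigratory libraries, higher in 4 of 4 batches (1.33, SE 0.60, adjusted p = 0.14). The delta genes eef1da (4.95, SE 1.70, adjusted p = 0.0638) and EEF1D (3.06, SE 1.48, adjusted p = 0.161) had premigratory values of 2.25, 5.55, 5014 and 3026, and of 2983, 2.82, 130 and 1628. The genes eef1da and EEF1D had at least 1804 and 605 in every migratory library.

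EEF2K, the kinase that slows elongation by phosphorylating eEF2, had 524, 704, 1154, 51.5, 563, 2461, 2114 and 868 in migratory libraries 1 to 8, against 3.24, 2448, 0 and 5.34 in premigratory libraries. All migratory values lay above those of 3 premigratory libraries, and premigratory library 2 was as high as the highest migratory one (5.45, SE 1.92, adjusted p = 0.0686). It was called without migratory library 4, without premigratory library 2 and with array weights. EEF2 had 0.536 to 134 (median 49.6) in migratory libraries, against 0, 0, 0 and 6.92 in premigratory libraries (3.95, adjusted p = 0.0874). The gene eef2a.1 had 0 to 449 in migratory libraries and 2573 in premigratory library 2, with at most 1.92 in the other premigratory libraries (0.45, SE 2.27, adjusted p = 0.911).

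The contrast between ribosomal proteins and factors was smaller among genes of high level, a split chosen after the data were seen and not tested. With a mean of 5000 or more over the 12 libraries, the median log2 fold change was -0.03 for 72 ribosomal proteins, 0.38 for 17 initiation factors, 0.83 for 4 elongation factors and 0.54 for all 682 such genes. Under that mean it was -0.004 for 10 ribosomal proteins, 2.22 for 45 initiation factors, 3.51 for 6 elongation factors and 2.78 for all 11440 such genes. Restricted to genes at 10 or more in all 12 libraries, the medians were -0.03 for 81 ribosomal proteins, 0.12 for 25 initiation factors, 0.83 for 4 elongation factors and 0.21 for all 1153. On log2(value + 1), a factor per library moves values near 0 less than high values. The median of ribosomal proteins minus that of all tested genes was -2.69 as deposited and -3.04 by the median of ratios. Quantile normalisation, which moved the median of all genes to -0.0011, gave -0.21. For initiation factors the 3 settings gave -1.30, -1.57 and 0.46, and for elongation factors -1.21, -1.53 and 0.91. The direction of both thus turned after quantile normalisation. Initiation factors also turned without a filter on low values (0.13), and elongation factors with 10 or more in all 12 libraries (0.61).

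Ratios were taken as differences of log2(value + 1), so where 1 gene of a pair is at or near 0 the ratio follows the level of the other and the scale of the library. In all, 33 pairs were tested, each by two-sided exact permutation over the 12 libraries, with Benjamini-Hochberg adjustment over the pairs. Of these, 0 had an adjusted p under 0.05 and 8 an unadjusted p under 0.05. Among 33 pairs, the smallest exact p this design can give does not bring 1 pair alone to an adjusted p under 0.05. The log2 ratio of rps27l to rps27.1 was -2.16, -2.13, -2.40, -1.98, -1.30, -1.22, -2.17 and -1.64 in migratory libraries 1 to 8, against -3.07, -3.98, -3.49 and -2.77 in premigratory libraries. All migratory ratios were higher than all premigratory ones. The difference of 1.45 between -1.87 ± 0.44 (SD, n = 8) and -3.33 ± 0.53 (SD, n = 4) had an exact p of 0.00202, the smallest this design can give, and an adjusted p of 0.0667. Over 14 alternatives it ranged from 1.16 to 1.64.

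The other pairs with the smallest p-values contained genes with values near 0. The log2 ratio of eif3ea to EIF3E was between 0.90 and 7.71 in migratory libraries, against 10.83, 11.12, 11.99 and 6.19 in premigratory libraries, a difference of -6.72 (exact p = 0.00404, adjusted p = 0.0667). For eif4a1b to eif4a1a it was between -1.50 and 0.73 in migratory libraries, against -3.23, -11.35, -14.62 and -0.67 in premigratory libraries, a difference of 6.59 (exact p = 0.0162, adjusted p = 0.178). For EEF2 to eef2b it was between -12.53 and -7.14 in migratory libraries, against -13.87, -14.02, -14.49 and -10.15 in premigratory libraries, a difference of 4.00 (exact p = 0.0222, adjusted p = 0.183). In each of these 3 pairs the groups overlapped.

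**Figure D5:**
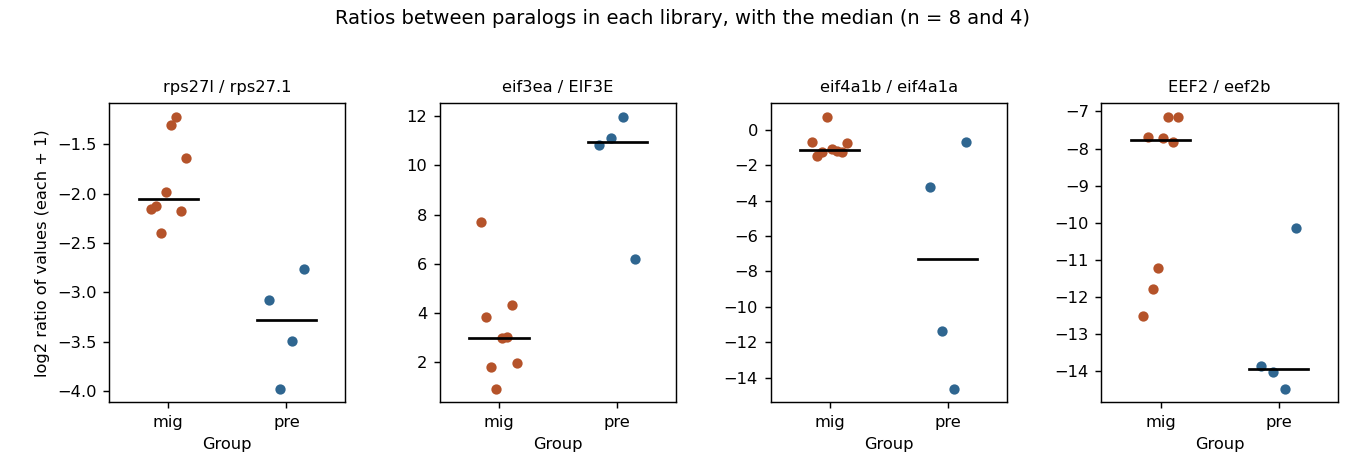
Log2 ratio of 2 paralogs in each library for the 4 pairs with the smallest exact p, with migratory libraries (mig, n = 8, orange) left of premigratory libraries (pre, n = 4, blue) and black bars for medians; each panel has its own vertical scale. Groups are apart for rps27l over rps27.1 alone, where migratory ratios lie between -2.40 and -1.22 and premigratory ratios between -3.98 and -2.77.

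Other genes of translation were counted from lists of names, chosen with earlier results of these data known. Of 75 tested mitochondrial ribosomal proteins, 8 rose and 0 fell, 10.7% beside 12.4% of all tested genes, with a median log2 fold change of 2.51 against -0.03 for the cytosolic ones. Detection differed between the 2 sets. Values under 10 made up 2.5% of mitochondrial ones in migratory and 31.7% in premigratory libraries, against 1.2% of cytosolic ones in both. Of the 75, 42 had 10 or more in all 8 migratory libraries and under 10 in at least 1 premigratory library. The part of detection in the contrast was not tested. MRPL41 had 117 to 1425 in migratory libraries and at most 5.83 in premigratory libraries, with separate groups (8.35, SE 1.44, adjusted p = 0.00185). MRPL41 passed the filter through migratory libraries alone, and with premigratory values near 0 the size of its difference depends on the pseudocount. The genes mrpl30 and MRPL3 had log2 fold changes of 7.92 and 7.47 (adjusted p = 0.0114 and 0.0161). Of 14 other tested genes of the oligopyrimidine class, 0 were called by limma, beside 12.4% of all tested genes higher and 0.132% lower. The median of the class was 0.34. An unadjusted p under 0.05 was reached by 1 gene higher and 1 lower, beside 3850 and 80 of all 12122 tested genes. The gene of the class with the smallest p was npm1a, a nucleolar chaperone of ribosome assembly. It had 5823 to 24850 in migratory and 22276 to 45957 in premigratory libraries (-1.22, SE 0.40, adjusted p = 0.0534). In the same list npm1b had 4.81 (adjusted p = 0.106) and 1 of 2 VIM identifiers 3.85 (adjusted p = 0.218).

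Among 23 tested cytosolic aminoacyl-tRNA synthetases and their scaffold proteins, 2 rose and 0 fell, with a median of 2.71. Over all tested genes 12.4% rose and the median was 2.67. WARS1 had 449 to 1942 in migratory libraries, against 0 to 1049 with a median of 0 in premigratory libraries (7.28, SE 1.84, adjusted p = 0.0193), SARS1 had a log2 fold change of 6.11 (adjusted p = 0.0271), and 1 of 2 AIMP1 identifiers had 6.75 without a call (adjusted p = 0.0647). Of 11 tested genes of termination, recycling and surveillance, 1 rose and 0 fell, with a median of 0.62, also beside 12.4% higher and a median of 2.67 over all tested genes. That gene was UPF3B, of nonsense-mediated decay, with 12.3 to 2070 in migratory and 0 to 5.26 in premigratory libraries (8.15, SE 1.66, adjusted p = 0.0067). UPF3B passed the filter through migratory libraries alone. The genes upf3a (3.70, adjusted p = 0.0734) and SMG1 (2.91, adjusted p = 0.229) were not called.

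Of 22 tested genes of mTORC1 and its control of oligopyrimidine messages, 4 rose and 0 fell, with a median of 3.89, beside 12.4% higher, 0.132% lower and a median of 2.67 over all tested genes. DEPTOR, an inhibitor of mTOR, had 69.0 to 2596 in migratory libraries and at most 3.76 in premigratory libraries (7.83, adjusted p = 0.00414). The gene rps6kb1a, an S6 kinase, had 0 to 1934 in migratory libraries and was listed at 0 in each premigratory one (adjusted p = 0.0353). Both DEPTOR and rps6kb1a passed the filter through migratory libraries alone. LAMTOR3 and rragcb, of the lysosomal complex that recruits mTORC1, had log2 fold changes of 5.46 and 5.80 (adjusted p = 0.0461 and 0.0487). Mitochondrial translation factors had 0 of 6 tested genes called by limma, beside 12.4% of all tested genes higher and 0.132% lower. An unadjusted p under 0.05 was reached by 2 of them, both higher, as by 3850 of all 12122 tested genes. Their median was 3.01, and their lowest adjusted p-values were at MTIF2 (0.0773), mtif3 (0.133) and TUFM (0.208).

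The 10 genes that did not pass the filter were listed near 0 in most libraries. EIF4E1B, in vertebrates an eIF4E of the germ line and early embryo, had 4172 in premigratory library 1 and at most 18.8 in the other 11. One EIF3H identifier, ending in 036116, had 205 in migratory library 6 and at most 8.31 elsewhere, and eef2a.2 had 42.8 in migratory library 5 and at most 13.4 elsewhere. The 2 identifiers named EEF1A1 had at most 17.6, and eef1a2, the form of muscle and neurons in mammals, at most 1.97. One of 2 EIF3B identifiers had at most 3.99, and eef1a1l3 had 13.2 in migratory library 7 and 0 elsewhere. Of the 164 identifiers, 24 share 12 symbols. Whether the counting divided reads among similar copies was not tested.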

How the data were processed

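The authors deposited 1 table of normalised expression signal per gene for 12 libraries. Libraries were made with SMART-Seq v4 and Nextera, per the labels' protocols. The submitters' processing notes name fastp 1.0, Salmon and GRCz11, without role or order, and the method of normalisation is not given in the sources used here. Whole reads could not be recovered from the values, so no count model was used and sequencing depth is unknown. The reads were amplified and carry no molecular identifiers, so they do not count molecules.

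Columns were matched to libraries by name, and 0 were left out. Symbols were found for 23604 of the 25878 identifiers, and 24 of the 164 genes described share a symbol with another. Genes that reached 10 in 4 libraries or more were fitted on log2(value + 1) with limma 3.58.1 (R 4.3.3; lmFit, eBayes with trend), with Benjamini-Hochberg adjustment over all of them and a threshold of 0.05. The code was tested on simulated data. Ratios of 33 paralog pairs were tested by exact two-sided permutation. Python 3.11.15, numpy 2.4.6, pandas 2.3.3, statsmodels 0.14.6 and matplotlib 3.10.9 were used for the rest.

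The genes named are, by rule, all called; up to 4 with the smallest p and the one with the highest mean per role; a fixed set of regulators and reference members, among them RPLP0, RPS6, EIF2S1, EIF4E and the eIF2 kinases; the 4 pairs with the smallest p; up to 6 under the filter; and up to 3 per further list. Other names were chosen after their values were seen. The members and lists were chosen with earlier results of these data known. Replicates are biological per the labels, and p-values reflect only how far these libraries spread. The limma fit gave each gene 1 variance for both groups, though spread was unequal. The log2 SD of tested initiation factors had a median of 0.91 in migratory and 2.46 in premigratory libraries. For EIF2B1 it was 0.68 and 5.58. Where the smaller group spreads more, a shared variance can make SEs and p-values too small. A fit with a variance per group was not run. Replicate numbers are also called batches in the labels. Deviations of libraries with the same number from their group means correlated at 0.155, 0.0118, 0.0424 and 0.0342 for numbers 1 to 4, and numbers 5 to 8 are migratory only. For libraries with different numbers these correlations lay between -0.0924 and 0.123. Counts over 4 batches leave out migratory libraries 5 to 8. The share of all tested genes with the same direction in 4 of 4 batches is not given, so these counts lack a background. Over all tested genes, 10362 log2 fold changes were above 0 and 1760 below. Alternatives changed the pseudocount, the filter, the scaling, the library weights, the batch block and the libraries included. The split at a mean of 5000 and the removal of 2 libraries together were chosen after seeing the data. One gene is not reported here by name.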

Additional observations from a re-analysis of the deposited data

Results flagged for a closer look

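In 31 of 116 group values examined, the highest or lowest library lay far from the nearest of its group relative to the range of the group. The cut-off is set to flag about 1 in 20 groups of independent, normally distributed values. Groups here include values near 0, genes that move together within a library and genes named for their p-values. The count was therefore not tested against that rate. Migratory library 4 accounted for 10 of them. It was high for the share of ribosomal proteins (13.8%) and of elongation factors (1.04%), and for eef1a1l1 (113713), RPL3 (89810), RPL4 (38273) and RPLP0 (85029). It was low for EEF2K (51.5), eif4eb (0), 1 EIF4EBP3 identifier (448) and EIF5 (2187). Migratory library 1 was low for EIF2S2 (6876), EIF3E (2.37), eif3ea (706), EIF3G (3180) and eif5a (10195). Migratory library 5 was low for eif4ebp1 (4733) and migratory library 7 for EIF2D (0.936).

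Premigratory library 2 was high for eef2a.1 (2573), EIF2B4 (2727), EIF2B5 (1946) and EIF2D (72), and low for EIF3F (4.76) and 1 EIF3J identifier (3.9). Premigratory library 1 was high for EIF1 (12211) and EIF4E3 (3.02), and low for 1 EIF4EBP3 identifier (5.13). Premigratory library 3 was low for both EIF2S1 identifiers (0 and 1.95) and EIF5 (1.58). Premigratory library 4 was high for EEF2 (6.92) and low for EIF4E (0).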

How the results depend on the processing

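No tested ribosomal protein or factor named by rule was called with the opposite sign under the alternatives run. Genes of the further lists and genes under the filter were not followed across the alternatives. Class medians did cross 0: that of ribosomal proteins was 0.18 in batches 1 to 4. Relative to all tested genes, initiation and elongation factors turned direction after quantile normalisation. Initiation factors also turned without a filter, and elongation factors with 10 or more required in all 12 libraries. Against 1508 genes called higher in migratory libraries, 821 were called with a pseudocount of 10, 851 without a filter, 9 with 10 or more required in all 12 libraries, 753 scaled by the median of ratios, 139 after quantile normalisation, 351 in batches 1 to 4, and 771 to 1911 with 1 library left out. Against 16 called lower, these settings gave 7 without a filter, 2 in all 12 libraries, 59, 53, 7 in batches 1 to 4 and 6 to 19, and array weights gave 5. Of the calls, 99.0% were higher as deposited, 81.8% in all 12 libraries and 72.4% after quantile normalisation. Against 7 initiation factors called higher, there was 1 with a pseudocount of 10, without a filter, by the median of ratios, by the same total and in batches 1 to 4 (there EIF2AK3, with 0 of the 7 still called), 3 by the trimmed mean of M values, 4 with array weights, 0 in all 12 libraries and after quantile normalisation, and 0 to 7 with 1 library left out. Their median of 1.37 became 0.98 with a pseudocount of 10, 0.12 in all 12 libraries, 0.29 by the median of ratios, 0.96 by the same total, 0.46 after quantile normalisation and 0.80 to 1.51 with 1 library left out. By the median of ratios 3 initiation factors and 1 ribosomal protein were called lower, and the ribosomal protein median was -1.18; it was -0.24 to 0.12 with 1 library left out. Elongation factors had 1 called with array weights and 0 to 1 with 1 library left out. Without premigratory library 1 and migratory library 5 there were 2 initiation factors with a median of 0.87. Without migratory library 4 and premigratory library 3 there were 1 initiation factor with a median of 0.97, 1 elongation factor, and 6 genes lower. The cause was not tested.

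With the batch number as a fixed replicate block, 0 genes were called higher and 0 lower, and 0 initiation factors. As a random block, with a correlation of 0.0175, it gave 1543 higher and 17 lower and the same 7 factors. Same-numbered libraries did not all correlate above 0.1. Depth is unknown, so values near 0 cannot be told from failed capture.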
